A study of Mus musculus with 12 samples.

Results

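RNA levels of 5 genes were followed in the mouse left ventricle: Rasgrp2, Rapgef3, Sh2d3c, Kank3 and Itpr3, out of the 38293 genes in the deposited tables. They were chosen by name on their CPM in these same libraries, because their RNA was lower in hydrogel-injected hearts than in saline-injected hearts. Their levels in every comparison are therefore given as a description and no test is attached to them. Healthy C57BL/6J mice, whose age and sex the labels do not give, had the thorax opened and received 2 injections of 10 µl into the heart muscle, and hearts were collected on day 3. The control group received phosphate-buffered saline (PBS). The Upy-PEG group received a hydrogel with no drug, and the antimiR-195 group received the same hydrogel loaded with an antisense oligonucleotide against the microRNA miR-195. Each group had 4 libraries of polyadenylated RNA, and all 3 groups shared the surgery and the needle injury, with no uninjected group among them. Replicate numbers follow the order of deposition and serve only as names.

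Rap1 is a small GTPase that switches integrin adhesion and the junctions between endothelial cells on when it carries GTP. Exchange factors load it with GTP: Rasgrp2 (CalDAG-GEFI) responds to calcium and is best known from platelets, and Rapgef3 (Epac1) responds to cyclic AMP and tightens the endothelial barrier. Sh2d3c is an adaptor that ties Cas scaffold proteins to Rap and R-Ras signalling. Kank3 belongs to the Kank proteins, which bind talin at the rim of focal adhesions and link them to the cell cortex. Itpr3 is an inositol trisphosphate receptor, a calcium release channel of the endoplasmic reticulum.

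Gene totals were 22.4 × 10⁶ to 30.3 × 10⁶ counts a library, and 14770 genes were tested with edgeR's quasi-likelihood test. After Benjamini-Hochberg adjustment 0 genes passed 0.05 in any comparison, 0% in Upy-PEG against PBS, 0% in antimiR-195 against Upy-PEG, 0% in antimiR-195 against PBS and 0% in both hydrogel groups against PBS. At an unadjusted p under 0.05 these comparisons held 1944, 1930, 2444 and 2251 genes. DESeq2 called 511, 16, 97 and 380 genes, and limma voom with sample weights called 918, 0, 1 and 4. All 5 genes passed the filter on low counts. Replicates 2 and 3 of the antimiR-195 group stood apart on the first principal component, at -60.2 and -40.7, while the rest of the libraries ranged from -8.48 to 33.4, with counts tilted away from long genes. PBS replicate 1 held 12.3% mitochondrial counts, and PBS replicates 2 to 4 held 18.7% to 19.5%. The deposited labels call nothing a batch.

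All 5 genes are protein coding, on GRCm38. Rasgrp2 (ENSMUSG00000032946) lies at chr19:6399340-6415216 on the plus strand and Rapgef3 (ENSMUSG00000022469) at chr15:97744770-97767972 on the minus strand. Sh2d3c (ENSMUSG00000059013) lies at chr2:32721055-32755512, Kank3 (ENSMUSG00000042099) at chr17:33810519-33822918 and Itpr3 (ENSMUSG00000042644) at chr17:27057304-27122223, these 3 on the plus strand. The sequence just before a start site is shown for 4 of them because their RNA levels were low together in the same groups. RefSeq, on GRCm38.p6, lists 6 start sites for the 5 genes. The lines give the stretch of the 250 bases before a start that no annotated exon covers, 5′ to 3′ in the direction of transcription, with matches to 6 motifs in capitals.
Rasgrp2, chr19:6399625-6399745 (+ strand): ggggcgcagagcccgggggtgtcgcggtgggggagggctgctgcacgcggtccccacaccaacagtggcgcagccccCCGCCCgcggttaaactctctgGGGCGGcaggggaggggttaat
Sh2d3c, chr2:32727439-32727688 (+ strand): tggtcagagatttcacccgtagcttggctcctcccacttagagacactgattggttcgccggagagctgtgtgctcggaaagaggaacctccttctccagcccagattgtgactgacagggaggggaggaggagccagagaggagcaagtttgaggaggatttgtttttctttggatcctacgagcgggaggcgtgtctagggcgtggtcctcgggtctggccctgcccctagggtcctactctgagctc
Kank3, chr17:33810273-33810518 (+ strand): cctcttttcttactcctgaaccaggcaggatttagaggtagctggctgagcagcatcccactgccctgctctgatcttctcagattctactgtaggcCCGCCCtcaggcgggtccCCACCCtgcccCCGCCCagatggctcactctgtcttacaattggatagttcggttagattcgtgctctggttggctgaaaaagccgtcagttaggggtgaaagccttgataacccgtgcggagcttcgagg
Itpr3, chr17:27057054-27057303 (+ strand): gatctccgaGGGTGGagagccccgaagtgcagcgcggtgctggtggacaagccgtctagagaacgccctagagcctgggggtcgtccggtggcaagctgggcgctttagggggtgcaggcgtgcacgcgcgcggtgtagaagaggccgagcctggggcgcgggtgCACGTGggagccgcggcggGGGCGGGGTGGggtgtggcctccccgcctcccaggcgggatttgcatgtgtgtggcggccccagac
The motifs were read on both strands. GGGCGG stood for SP factors and CCACCC for KLF factors. CCGGAA stood for ETS factors and AGATAA for the factors named after the letters of their motif (GATA factors). The E-box was CACGTG, and the core of the cyclic AMP response element was TGACGT. Across the whole 250 bases, SP matched in 5 of 6 windows and in 32.7% of 32851 mouse promoters. KLF matched in 5 of 6 windows and in 28.1% of promoters, and in Itpr3 a KLF match overlaps the SP match. ETS matched once, at the second Rasgrp2 start (12% of promoters), E-box once, in Itpr3 (6.02%), the cyclic AMP response core once, in Rapgef3 (6.47%), and the GATA factor motif in none (9.99%). The Sh2d3c window held none of the 6 motifs. The windows of Rapgef3 and of the second Rasgrp2 start lie wholly in annotated exons and are not printed.

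Rasgrp2, the calcium-responsive Rap1 exchange factor, stood at 44.2, 51.7, 45.6 and 42.8 CPM in the 4 PBS libraries. CPM are read counts relative to the library's total, scaled by the trimmed mean of M values (TMM). It stood at 28.1, 30.6, 32.6 and 35 CPM in the Upy-PEG libraries and at 40, 31.7, 37.3 and 38.1 CPM in the antimiR-195 libraries. All 8 hydrogel libraries were below the lowest PBS library, and the ranges of the hydrogel groups overlapped each other. The log2 fold change against PBS was -0.55 ± 0.105 (SE) with Upy-PEG, 31.5% lower, and -0.33 ± 0.105 with antimiR-195, 20.2% lower. Against Upy-PEG, the antimiR-195 group was at 0.22 ± 0.105. With antimiR-195 replicates 2 and 3 left out, the value against PBS in that group was -0.23.

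Rapgef3, the cyclic AMP-responsive exchange factor, stood at 40.5, 35.6, 33.4 and 32.3 CPM in PBS libraries. The Upy-PEG libraries held 25.2, 27.4, 27.9 and 26.6 CPM and the antimiR-195 libraries 28.4, 25.6, 28.3 and 28.9 CPM. Every hydrogel library lay under every PBS library, and the hydrogel groups covered nearly the same range. Against PBS its log2 fold change was -0.40 ± 0.0935 with Upy-PEG and -0.35 ± 0.0937 with antimiR-195, and the antimiR-195 group was at 0.05 ± 0.0938 against Upy-PEG. The highest PBS value was that of replicate 1, the library with the low mitochondrial share, and without it the changes were -0.33 and -0.28.

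Sh2d3c, the Cas-binding adaptor, had its lowest values with antimiR-195. The PBS libraries held 36.2, 29.9, 33.6 and 34.4 CPM, the Upy-PEG libraries 28.1, 25.6, 27.9 and 26.7 CPM, and the antimiR-195 libraries 23, 20.1, 24.3 and 26.9 CPM. No hydrogel library reached the lowest PBS library, while antimiR-195 replicate 4 lay inside the Upy-PEG range. The log2 fold change against PBS was -0.31 ± 0.103 with Upy-PEG (19.3% lower) and -0.51 ± 0.103 with antimiR-195 (29.7% lower). By limma-trend on the deposited RPKM the value with Upy-PEG was -0.20. The antimiR-195 group was at -0.20 ± 0.103 against Upy-PEG, and at -0.11 without its replicates 2 and 3.

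Kank3, the talin-binding adhesion protein, held 81.4, 69.4, 62.9 and 64 CPM in PBS libraries and 48.1, 50.1, 47.9 and 52.2 CPM in Upy-PEG libraries. The antimiR-195 libraries formed a higher pair, 59.9 and 61.8 CPM in replicates 1 and 3, and a lower pair, 47.8 and 49.3 CPM in replicates 2 and 4. The Upy-PEG libraries lay well under the PBS libraries, whereas the highest antimiR-195 library was only just under the lowest PBS library. The log2 fold change against PBS was -0.49 ± 0.113 with Upy-PEG (28.6% lower) and -0.34 ± 0.113 with antimiR-195 (21.2% lower), and 0.14 ± 0.113 between the hydrogel groups. Without PBS replicate 1 the values against PBS were -0.40 and -0.26. Kank3 shares 88 of its 3260 exon bases with the ribosomal protein gene Rps28 on the opposite strand. Reads on those bases cannot be told apart without strand, and the strand setting of the counting is not given in the sources used here.

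Itpr3, the calcium release channel, had the fewest reads, 170 to 471 counts a library. Its levels were 13.5, 17.3, 18.9 and 13.2 CPM with PBS, 14.6, 12.4, 10.1 and 10.2 CPM with Upy-PEG, and 10.6, 7.32, 9.87 and 9.17 CPM with antimiR-195. Upy-PEG replicate 1 was above 2 of the PBS libraries, so those groups overlapped, and all antimiR-195 libraries were below all PBS libraries. Its log2 fold change was -0.41 ± 0.164 with Upy-PEG and -0.77 ± 0.167 with antimiR-195 (41.2% lower), and -0.36 ± 0.167 between the hydrogel groups. Itpr3 has a long transcript, 8990 bases, and replicates 2 and 3 of the antimiR-195 group were tilted against long genes. With each library's slope of expression on gene length as a covariate, the value between the hydrogel groups was -0.16 and that of antimiR-195 against PBS -0.52.

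**Figure D1:**
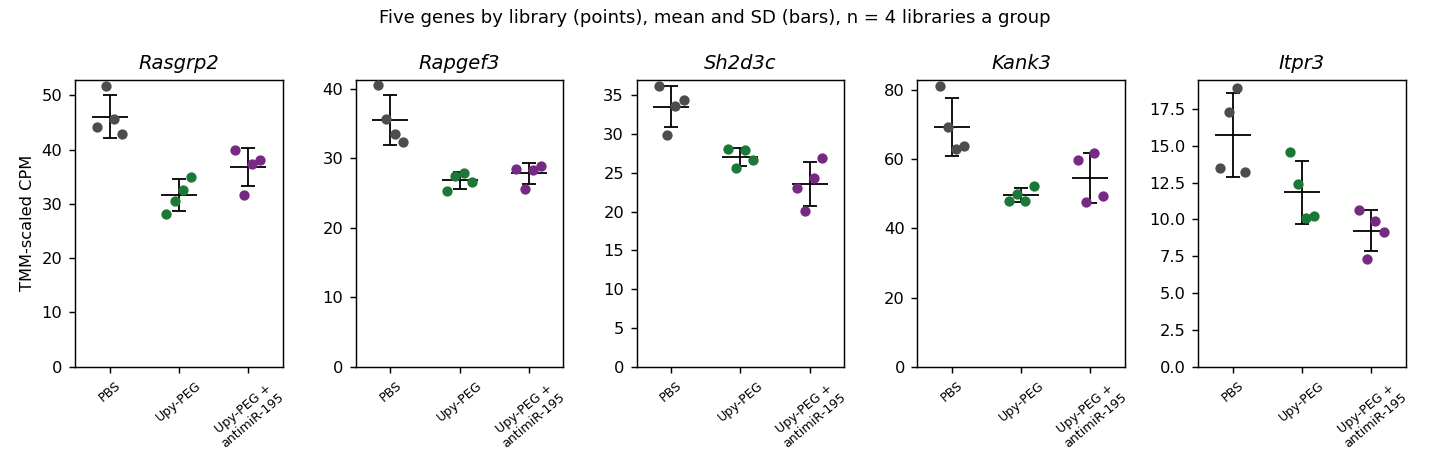
Level of each gene in every library, in TMM-scaled CPM from 0 (vertical axis), by group (horizontal axis). Points are libraries, and the bar with whiskers is the mean with its SD over 4 libraries. All antimiR-195 points lie under all PBS points in the 5 panels, and all Upy-PEG points do so in 4 panels, with Itpr3 the exception.

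Counted over the 5 genes, all Upy-PEG libraries were below all PBS libraries in 4, beside 3.77% of the 14770 genes tested. All antimiR-195 libraries were below all PBS libraries in 5 of 5, beside 3.32% of genes, and all 8 hydrogel libraries were below all PBS libraries in 4 of 5, beside 1.22%. Since the genes were picked for these values, nothing is read from these shares. The antimiR-195 and Upy-PEG ranges were apart in 0 of 5. The hydrogel groups were compared with the same 4 PBS libraries, so these counts are not independent of each other. The median log2 fold change of the 5 genes was -0.41 with Upy-PEG and -0.35 with antimiR-195, against -0.03 and 0.01 over all genes tested. For both hydrogel groups together the 5 values ran from -0.38 ± 0.0799 in Rapgef3 to -0.59 ± 0.14 in Itpr3. On the deposited RPKM (reads per kilobase of gene, scaled by total reads without the TMM scaling), all Upy-PEG libraries were below all PBS libraries in 3 of 5, beside 1.31% of genes. Sh2d3c joined Itpr3 in overlapping there, with a highest Upy-PEG value of 6.13 RPKM against a lowest PBS value of 5.42 RPKM.

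Compared per length, in PBS hearts Kank3 was the most abundant at 22 ± 3 RPKM (SD, n = 4). Sh2d3c followed at 6.35 ± 0.667 RPKM and Rapgef3 at 5.53 ± 0.642 RPKM, and the ranges of these neighbours overlapped. Rasgrp2 stood at 3.67 ± 0.214 RPKM and Itpr3 at 1.73 ± 0.295 RPKM, apart from each other and from the genes above them. The place of Rasgrp2 rests on the length used. The deposited table divides by 12384 bases for it, while its longest coding transcript in GENCODE has 2296 bases. Per kilobase of the longest coding transcript the PBS means were 26.2 CPM for Kank3, 20.1 for Rasgrp2, 10.8 for Sh2d3c, 8.85 for Rapgef3 and 1.75 for Itpr3.

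The nearest relatives were measured in the same fit, and none passed the adjusted threshold. Kank2, the Kank family member with the highest level per length (27.2 ± 1.55 RPKM in PBS, SD, n = 4), held 127, 150, 132 and 126 CPM in PBS libraries. It held 107, 107, 115 and 117 CPM with Upy-PEG and 116, 93.4, 97.8 and 110 CPM with antimiR-195. All hydrogel libraries were thus under all PBS libraries, as in 1.22% of the genes tested. Its log2 fold change was -0.26 ± 0.0986 (adjusted p = 0.252, edgeR) and -0.36 ± 0.0988 (adjusted p = 0.253, edgeR). Kank1 was at -0.06 ± 0.141 and -0.22 ± 0.142, and Kank4, at most 1.15 CPM in any library, at -0.10 ± 0.263 and -0.06 ± 0.268.

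Among the nearest relatives of the exchange factors, Rasgrp3 had values of -0.12 ± 0.142 with Upy-PEG and -0.16 ± 0.143 with antimiR-195. Rapgef4 (Epac2), the other cyclic AMP-responsive exchange factor, was at -0.08 ± 0.115 and 0.10 ± 0.115. Rasgrp4 was at 0.31 ± 0.202 and 0.16 ± 0.204, Rasgrp1 at 0.51 ± 0.4 and -0.07 ± 0.421, and Bcar3, a relative of Sh2d3c, at 0.07 ± 0.173 and -0.08 ± 0.175. The other inositol trisphosphate receptors were lower by less than Itpr3, with Itpr1 at -0.19 ± 0.178 and -0.28 ± 0.178 and Itpr2 at -0.23 ± 0.103 and -0.17 ± 0.103. Whether a relative and its counterpart among the 5 genes differ in their change was not tested.

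The GTPases themselves were not lower. Rap1b held 98.8, 71.2, 88.1 and 87.5 CPM with PBS, 116, 115, 95.1 and 110 CPM with Upy-PEG, and 96.2, 128, 112 and 105 CPM with antimiR-195. Its groups overlapped, and its log2 fold change against PBS was 0.34 ± 0.122 (adjusted p = 0.232, edgeR) and 0.35 ± 0.122 (adjusted p = 0.253, edgeR). Rap1a held 45.6, 37.1, 41.9 and 38.1 CPM with PBS, 43.8, 50.3, 47.9 and 45.6 CPM with Upy-PEG, and 47.8, 64.3, 56.6 and 48.2 CPM with antimiR-195. Its antimiR-195 libraries were all above its PBS libraries, at 0.41 ± 0.113 (adjusted p = 0.253, edgeR), with 0.20 ± 0.112 for Upy-PEG. RNA levels do not show how much Rap1 carries GTP, which was not measured.

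**Figure D2:**
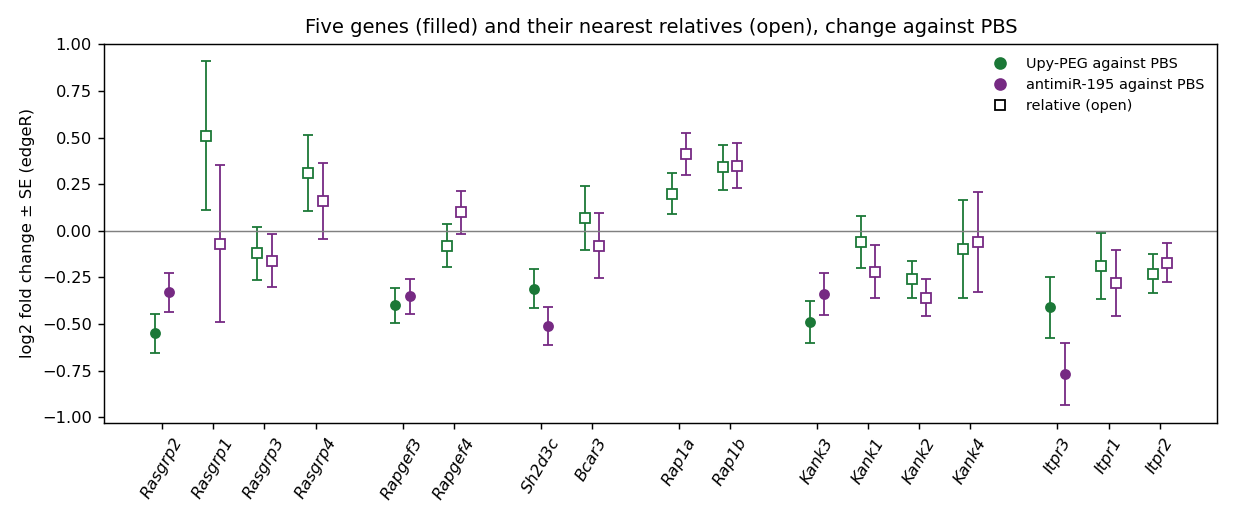
The log2 fold change against PBS with its SE from edgeR (vertical axis) for the 5 genes (filled circles) and their nearest relatives (open squares), for Upy-PEG (green) and antimiR-195 (purple). All 10 filled points lie below 0, between -0.31 and -0.77, and Rap1a and Rap1b lie above 0.

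Genes around them in the pathway were counted from lists set by role, of which 86 of 89 genes were tested. In Upy-PEG against PBS 49 were lower (57%, beside 55.3% of all genes) and 37 higher, with a median of -0.06. At an unadjusted p under 0.05, 4 were lower (4.65%, beside 3.83% of all genes) and 10 higher (11.6%, beside 9.33%), and 0 passed adjustment. Scaling by library size alone moved the median of all genes from -0.03 to 0.07. There 53 of the pathway genes were higher and 33 lower, beside 9564 and 5206 of all genes. The direction of the lists as a whole thus turns with the scaling. The 5 Rap GTPases all had higher means, with a median of 0.20 (0.30 under library size alone). Rap2b, a close relative of Rap1, was at 0.71 ± 0.167 (adjusted p = 0.0985, edgeR), with 9.19, 8.78, 11.5 and 10.9 CPM in PBS and 19.7, 16.3, 14.2 and 15.7 CPM in Upy-PEG libraries. Its adjusted p was 0.0402 (edgeR) in a fit that dropped replicates 2 and 3 of the antimiR-195 group, where 349 of 15135 genes passed.

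Of the 19 Rap1 effectors and adhesion partners, 10 were higher and 9 lower with Upy-PEG, with a median of 0.02. The share of all genes lower in this comparison, 55.3%, stands beside each count of lower genes here. Rassf5, the Rap1 effector RAPL of blood cells, was at 0.77 ± 0.202, and Fermt3, the kindlin of blood cells, at 0.68 ± 0.203, neither past adjustment. Among the Cas scaffolds and their Crk partners 5 of 6 were higher, led by Efs at 0.53 ± 0.182. Of the 11 other exchange factors and their relatives 8 were lower, with a median of -0.12 (-0.01 under library size alone). The 3 higher were Rasgrp1, Rasgrp4 and Bcar3, and 0 of the list reached an unadjusted p under 0.05. Of 8 Rap1 inactivators 6 were lower, with a median of -0.07 that turned to 0.05 under library size alone. In the cyclic AMP list upstream of Rapgef3 12 of 16 were lower, with a median of -0.12 (-0.02 under library size alone). Among the other Kank family members and Kank partners 6 of 8 were lower, with a median of -0.12 (-0.02 under library size alone). At an unadjusted p under 0.05, 2 were lower (25%, beside 3.83% of all genes) and 1 higher (12.5%, beside 9.33%). Under library size alone 0 were lower and 2 higher at that p. The 2 lower genes were Kank2 and Lurap1, an adaptor protein, at -0.54 ± 0.197. Dynll1, a dynein light chain of the same list, was at 0.64 ± 0.219. In the list of other Itpr channels and their partners 7 of 13 were lower, with a median of -0.05 (0.05 under library size alone). In the fit without replicates 2 and 3 of the antimiR-195 group, Dynll1 and Fermt3 had adjusted p-values of 0.0402 and 0.0438 (edgeR). With Rap2b they were the 3 of 86 pathway genes past 0.05 there, beside 349 of 15135 genes.

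With antimiR-195, 64 of the 86 pathway genes were lower than in PBS (74.4%, beside 49.2% of all genes), with a median of -0.16. At an unadjusted p under 0.05, 15 were lower (17.4%, beside 7.89% of all genes) and 5 higher (5.81%, beside 8.65%), and 0 passed adjustment. Without replicates 2 and 3 of that group 51 were lower, beside 7740 of 15135 genes in that fit, and the median was -0.04. At an unadjusted p under 0.05, 3 (3.49%) were lower there, beside 2.28% of all genes in that fit. The pathway genes are long, with a median length of 5279 bases against 3514 over all genes tested. The median of the 5 genes is 6336 bases. Of the 11 other exchange factors and their relatives 9 were lower (median -0.16). At an unadjusted p under 0.05 there were 2 of them, Rapgef5 at -1.03 ± 0.409 and Rapgef1 at -0.38 ± 0.154. With Upy-PEG these were at -0.48 ± 0.4 and -0.27 ± 0.154, and Rapgef2 was at -0.15 ± 0.194 with Upy-PEG and -0.35 ± 0.195 with antimiR-195. Of the 8 inactivators 8 were lower (median -0.32), 2 of them at an unadjusted p under 0.05. Of the Cas scaffolds and Crk partners 4 of 6 were lower (median -0.11), with Cass4 at -1.03 ± 0.403, the opposite side of PBS from most of this list with Upy-PEG. Without replicates 2 and 3 these lists had 6 of 11, 6 of 8 and 2 of 6 lower, with medians of -0.04, -0.07 and 0.06. Of the Kank list 7 of 8 were lower (median -0.21), and 3 of 8 without those replicates (median 0.02). Among the Rap GTPases 4 of 5 were higher (median 0.35), and 5 of 5 without those replicates (median 0.22). Of the effectors and adhesion partners 11 of 19 were lower (median -0.02), of the cyclic AMP list 13 of 16 (median -0.22) and of the Itpr list 11 of 13 (median -0.17). Without replicates 2 and 3 these had 13 of 19, 12 of 16 and 9 of 13 lower, with medians of -0.06, -0.08 and -0.08. Rapgef1, Rapgef2, Rapgef5 and Lurap1 were picked out after their values were seen. Plcg1, a phospholipase that makes the ligand of the Itpr channels, was at -0.52 ± 0.129 (adjusted p = 0.253, edgeR). Its levels were 85 to 95.1 CPM with PBS, 69.5 to 80.9 CPM with Upy-PEG and 46.3 to 74.6 CPM with antimiR-195, the lowest in replicate 2. Erp44, an endoplasmic reticulum protein that binds inositol trisphosphate receptors, was at 0.32 ± 0.0813. For both hydrogel groups together the lowest p of the lists belonged to Kank2, at -0.31 ± 0.0845 (adjusted p = 0.172, edgeR).

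Between the hydrogel groups, 64 of the 86 were lower with antimiR-195 (74.4%, beside 50.8% of all genes), with a median of -0.13. Without replicates 2 and 3 the count was 38, beside 7218 of 15135 genes. At an unadjusted p under 0.05 with all libraries, 9 were lower (10.5%, beside 6.4% of all genes) and 0 higher (beside 6.67%). Without those replicates 6 were lower (6.98%, beside 6.61% of all genes in that fit) and 1 higher (1.16%, beside 2.45%). Cass4, a Cas scaffold at 1.64 ± 0.361 CPM with Upy-PEG and 0.571 ± 0.312 CPM with antimiR-195 (SD, n = 4), was at -1.50 ± 0.394. Adcy7, an adenylyl cyclase, was at -0.79 ± 0.226, and Rasa3, a Rap1 inactivator, at -0.35 ± 0.132. Talin 1 (Tln1), the integrin activator that Kank proteins bind, was at -0.40 ± 0.164. None passed adjustment.

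**Figure D3:**
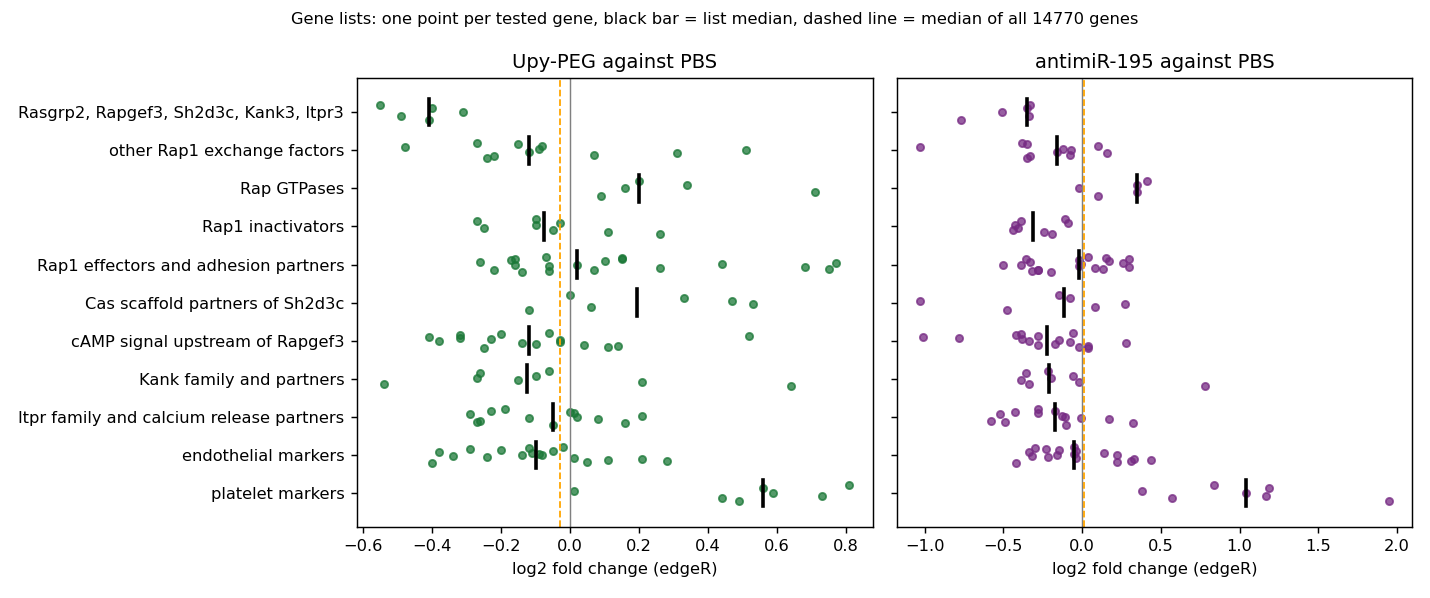
The log2 fold change (horizontal axis, edgeR) of every tested gene of each list (vertical axis), for Upy-PEG against PBS and antimiR-195 against PBS. Points are genes, black bars are list medians and the dashed line is the median of all genes tested. The 5 genes lie left of 0, with medians of -0.41 and -0.35, while the Rap GTPases have medians of 0.20 and 0.35. Without antimiR-195 replicates 2 and 3, a fit not drawn here, the latter was 0.22.

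These are levels in whole tissue, where fewer cells of a type and less RNA per cell cannot be told apart. Several of the 5 genes are known from endothelial cells, so endothelial markers were set beside them. Of 18 such markers 13 were lower with Upy-PEG (72.2%, beside 55.3% of all genes), with a median of -0.10 (0.00 under library size alone). At an unadjusted p under 0.05, 4 of them (22.2%, beside 3.83% of all genes) were lower. Under library size alone 1 was lower (5.56%, beside 1.18%) and 2 were higher (11.1%, beside 13%) at that p. With antimiR-195, 12 were lower (66.7%, beside 49.2% of all genes), with a median of -0.05. Again 4 of them (22.2%, beside 7.89%) were so at an unadjusted p under 0.05. Without replicates 2 and 3 the median was -0.06, and 1 (5.56%, beside 2.28%) was lower at that p. None passed adjustment. The summed markers ran from 1518 to 1781 CPM in PBS, from 1423 to 1596 CPM in Upy-PEG and from 1295 to 1617 CPM in antimiR-195 libraries. Pecam1, which marks all endothelium, was at -0.02 ± 0.103 and -0.05 ± 0.103, Cdh5, the endothelial cadherin whose junctions Rap1 strengthens, at -0.12 ± 0.187 and -0.30 ± 0.188, and Tie1 at -0.29 ± 0.108 and -0.23 ± 0.108. Sox18, Cldn5 and Ecscr, named after their values were seen, were higher than in PBS in both groups, at 0.21, 0.11 and 0.28 with Upy-PEG and 0.33, 0.44 and 0.31 with antimiR-195. Of 12 capillary and arterial markers, 10 were lower with Upy-PEG (median -0.20) and 6 with antimiR-195 (median 0.00, and -0.13 without replicates 2 and 3). Of 10 venous and activated markers 4 were lower with Upy-PEG (median 0.11) and 8 with antimiR-195 (median -0.19).

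Taken per 1000 CPM of the summed endothelial markers, the 5 genes were still lower on average in the hydrogel groups, by less. The log2 difference of Upy-PEG from PBS was -0.38 for Rasgrp2, -0.32 for Kank3, -0.24 for Rapgef3 and Itpr3 and -0.14 for Sh2d3c. For antimiR-195 it was -0.61 for Itpr3, -0.37 for Sh2d3c, -0.20 for Rapgef3 and Kank3 and -0.18 for Rasgrp2. Rasgrp2 ran from 25.7 to 29 in PBS, from 17.6 to 24.6 in Upy-PEG and from 24 to 24.7 in antimiR-195 libraries, still with no overlap with PBS. Rapgef3 kept apart from PBS in both hydrogel groups, narrowly in antimiR-195, with a highest value of 19.7 against a lowest PBS value of 20. Kank3 kept apart in Upy-PEG only (36.7 against 37.7) and Itpr3 in antimiR-195 only (6.54 against 7.82). Sh2d3c overlapped PBS in both, from 16.8 to 22.7 in PBS against 17.1 to 19.2 and 14.2 to 17. The share of all genes kept apart on this measure was not computed. Since the 5 genes were picked for low values, nothing is read from these separations.

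**Figure D4:**
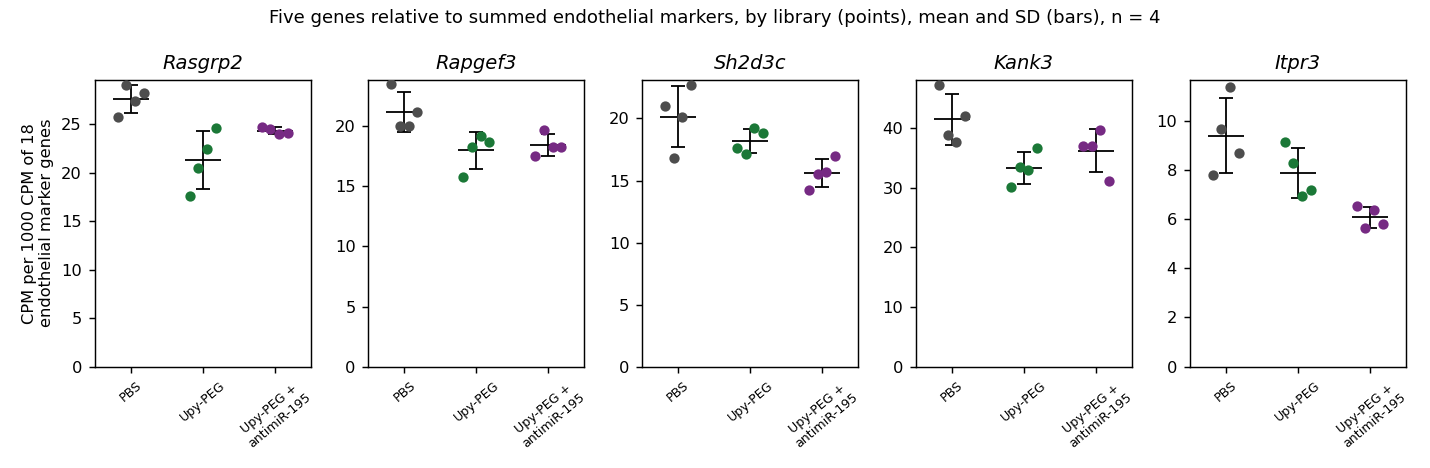
Each gene's CPM per 1000 CPM of 18 summed endothelial markers (vertical axis, from 0) in every library, by group (horizontal axis). Points are libraries, and the bar with whiskers is the mean with its SD over 4 libraries. Upy-PEG points lie under all PBS points for Rasgrp2, Rapgef3 and Kank3, and the ranges overlap for Sh2d3c and Itpr3.

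Markers of other cells also differed in level, and their part in the levels of the 5 genes was not tested. Rasgrp2 is also abundant in platelets. All 7 tested platelet markers of 9 had higher means with Upy-PEG, 1 of them at an unadjusted p under 0.05 (14.3%, beside 9.33% of all genes). The sum of all 9 ran from 23.2 to 42.7 CPM in PBS and from 47.1 to 63.5 CPM in Upy-PEG libraries. In antimiR-195 libraries it ran from 34.7 to 122 CPM. The antimiR-195 sums were 34.7, 122, 53.4 and 35.3 CPM in replicates 1 to 4, so replicates 1 and 4 lay within the PBS range, and the list's median of 1.04 was -0.31 without replicates 2 and 3. Pf4 made up most of the sum, whose medians were 34.4 CPM in PBS and 56.8 CPM in Upy-PEG libraries. Its group means were 26.7, 47 and 47.8 CPM, and it was at 0.81 ± 0.299 and 0.84 ± 0.3. Itga2b, with group means of 2.81, 2.85 and 3.69 CPM, was at 0.01 ± 0.519 and 0.38 ± 0.516. Lymphocyte markers summed to at most 5.18 CPM in any library, with Cd3e at 0 to 0.438 CPM. All 10 macrophage markers were higher with Upy-PEG, with a median of 0.75, and Cd68 went from 26.3 ± 7.98 to 61.4 ± 7.97 CPM (SD, n = 4; adjusted p = 0.0809, edgeR). Their sum ran from 414 to 610 CPM in PBS, from 703 to 915 CPM in Upy-PEG and from 490 to 1003 CPM in antimiR-195 libraries. Replicates 1 and 4 of antimiR-195, at 490 and 592 CPM, lay within the PBS range. The macrophage list's median with antimiR-195 was 0.61, and 0.12 without replicates 2 and 3. Cardiomyocyte markers were lower with Upy-PEG in 10 of 10, with a median of -0.30. With antimiR-195 they were lower in 3 of 10, with a median of 0.11. Without replicates 2 and 3 of that group 8 of 10 were lower, with a median of -0.04. The marker Myh6 was at -0.42 ± 0.17 with Upy-PEG and -0.40 ± 0.169 with antimiR-195. The cardiomyocyte marker sum ran from 91094 to 104408 CPM in PBS and from 65956 to 88588 CPM in Upy-PEG libraries. In antimiR-195 libraries it ran from 88377 to 96851 CPM. Fibroblast markers were higher with Upy-PEG in 8 of 8, with a median of 0.37, and in 4 of 8 with antimiR-195. Erythroid markers, a measure of blood left in the tissue, summed to 483 to 1465 CPM in PBS, 255 to 553 CPM in Upy-PEG and 549 to 1319 CPM in antimiR-195 libraries.

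The drug in the third group is directed against miR-195, so its target match was looked up in the 5 genes. RefSeq gives the mature form, on GRCm38.p6, at chr11:70235062-70235082 on the plus strand, shown with its seed (bases 2 to 8) in capitals because the seed sets which transcripts it pairs with.
mmu-miR-195a-5p: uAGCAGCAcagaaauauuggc
The 3′ untranslated regions searched, 1 a gene and the longest that GENCODE annotates, had from 227 bases in Rasgrp2 to 941 in Sh2d3c. The complement of the 7 seed bases occurred in 0 of 5. It occurred in 24.8% of 13317 tested genes, whose regions had a median of 1193 bases. The complement of bases 2 to 7 occurred once among the 5, in Kank3, and in 45.6% of tested genes.

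Among themselves the 5 genes varied mostly apart once the group means were taken out. Across the 12 libraries the Pearson r of log2 CPM was 0.69 for Rapgef3 with Kank3, and from -0.09 to 0.43 for the other pairs. Without antimiR-195 replicates 2 and 3 these were 0.68 and from -0.59 (Rasgrp2 with Sh2d3c) to 0.22. Among 12962 genes, those most like each of the 5 in this measure were Pdk2, Tcf23 and Pygm for Rasgrp2 (r from 0.94 to 0.95) and Gm17281, Bbs9 and Ccdc191 for Rapgef3 (0.91 to 0.93). For Sh2d3c they were Ppp1r10, Dll4 and Chst15 (0.90 to 0.92), for Kank3 Ficd, Gm12966 and Kcmf1 (0.92 to 0.94), and for Itpr3 Sec23a, Zfp518b and Zbtb34 (0.92 to 0.96). The points share the library, its depth and its cell makeup. Of these 15 genes, 4 were named again without antimiR-195 replicates 2 and 3 (Pdk2, Bbs9, Zfp518b and Sec23a).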

How the data were processed

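Polyadenylated RNA of 12 left ventricle samples was sequenced with a TruSeq stranded kit, per the labels' protocols. Reads were aligned to GRCm38 with STAR, counted per gene with HTSeq, and DESeq was used, per the submitters' processing notes. Their versions, the strand setting and the annotation used for counting: not given in the sources used here. The deposited values are read counts per gene and the authors' RPKM, which is scaled by total reads and by 1 length per gene. Series and sample count tables were equal in 459516 of 459516 cells. Between 6.25% and 8.77% of the uniquely aligned reads hit no gene, and these stayed out.

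Counts of all 12 libraries were fitted with edgeR 4.0.16 (R 4.3.3): filterByExpr, TMM scaling, a model of 3 group means (residual degrees of freedom: 9), quasi-likelihood tests, and p-values adjusted by Benjamini-Hochberg across 14770 genes at 0.05. log2 CPM used a prior count of 2. Alternatives were RLE size factors, library size alone, genes with a mean CPM of at least 1, no filter, a gene length covariate, DESeq2 1.42.0, limma 3.58.1 (voom, and limma-trend with a pseudocount of 0.1 on RPKM), fits restricted to the groups compared, and leaving out libraries. Scripts were tested on simulated data. Names and coordinates came from GENCODE, which named 36345 gene IDs.

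The 5 genes, the lists and the tests were chosen with earlier results of these data known. Named genes were the 5, their nearest relatives, the 5 pathway genes of lowest p in each comparison, the 3 genes most like each of the 5, and defining cell markers. The labels give no pairing, batch or litter, and do not say outright that each library is a separate animal, so p-values measure only the spread between these samples, which may be technical.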

Additional observations from a re-analysis of the deposited data

Results flagged for a closer look

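Rapgef3 in the antimiR-195 group was the only one of 15 gene and group combinations with a library far from the rest. Its replicate 2 stood at 25.6 CPM against 28.3 to 28.9 CPM in the other libraries of the group, a gap of 0.833 of the group's range, above Dixon's 95% critical value for 4 samples. Chance alone passes that value in about 1 in 20 groups. Replicate 2 is also the library farthest out on the first principal component, at -60.2.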

How the results depend on the processing

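Against PBS no value of the 5 genes changed sign under any alternative run (110 values for Upy-PEG, 110 for antimiR-195 and 105 for both groups together), and 1 moved by more than the spread between replicates: Rapgef3 with Upy-PEG, -0.29 by limma-trend on RPKM. Another 1 moved by over 1.5 times, Sh2d3c with Upy-PEG, from -0.31 to -0.20 by limma-trend on RPKM. That setting gave a median of the 5 genes of -0.29 with Upy-PEG in place of -0.41. Between the hydrogel groups 4 of 110 values changed sign and 17 moved by over 1.5 times, and the median of 0.05 became -0.10 under library size alone and -0.10 by limma-trend, settings without TMM scaling. Library size alone moved the median of all genes from -0.01 to -0.16 there. The number of genes past the threshold in Upy-PEG against PBS was 0 in the fit reported. It was 69 with no filter, 332 with the length covariate, 349 without antimiR-195 replicates 2 and 3, 172 with only the libraries compared, 511 by DESeq2, 918 by limma voom, and 0 to 150 when 1 library was left out (46 without Upy-PEG replicate 3 and 150 without antimiR-195 replicate 2). In antimiR-195 against Upy-PEG DESeq2 called 16. In antimiR-195 against PBS it was 1 with no filter, 97 by DESeq2 and 1 by limma voom, and for both groups together 6, 380 and 4. The cause was not tested. No paired analysis was possible because the labels number no replicates, and the numbers used here only follow the order of deposition. Itpr3, at 170 to 471 counts a library, has the largest SE of the 5 genes.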
